A study of Mus musculus with 12 samples.

Results

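The interferon regulatory factors (IRFs) are a family of transcription factors, and 7 of their genes, Irf1, Irf2, Irf3, Irf5, Irf7, Irf8 and Irf9, were taken by symbol from the 18269 genes of the table. All 7 passed the filter on low values, a mean of at least 10 normalised reads in at least 1 group, which left 17000 genes for testing. Irf7 passed only through its null day 5 mean (26.4), as its other group means were 1.31, 4.01 and 4.18. RNA came from mouse C57BL/6 embryoid bodies, aggregates in which embryonic stem cells start to differentiate. A floxed line, 4_1 (Gcn5fx/fx), in which both copies of Gcn5 carry recombination sites, was compared with a null line, 4C2 (Gcn5-/-), at day 3 and at day 5, to ask how loss of the histone acetyltransferase Gcn5 alters expression in early differentiation. The labels give 3 samples in each of the 4 groups, although the series text speaks of duplicates, and they name no added agent. Each genotype is 1 line, so line and genotype cannot be told apart. The samples are not said to be separate cultures, so p-values measure only the spread between them, which may be technical.

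IRFs share a DNA-binding domain with conserved tryptophans that recognises the interferon-stimulated response element (ISRE) in interferon genes and in genes that interferon induces. Irf3 and Irf7 are activated by kinases downstream of viral RNA and DNA sensors and switch on interferon genes. Irf9 joins Stat2 to carry the interferon signal to the ISRE, Irf1 is an activator induced through the interferon gamma activated site (GAS), Irf2 binds the same elements and can oppose it, and Irf5 and Irf8 are best known in immune cells. Pluripotent cells are known for a weak interferon response that strengthens as they differentiate.

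Floxed libraries held 23090915 to 29446068 reads and null libraries 18022071 to 26803369. No pair of libraries of a group agreed within sampling noise (lowest chi-squared per degree of freedom 10.5, null day 3 samples 1 and 2). Kat2a, the gene for Gcn5, had 2071 to 2391 normalised reads in the floxed libraries and 614 to 860 in the null libraries. All 18 embryoid body and pluripotency markers listed were in the table, and their summed level was 50724 to 63297 in floxed and 43340 to 54768 in null samples at day 3, and 23817 to 33234 and 15736 to 19815 at day 5. The largest means in floxed samples at day 3 were those of Dnmt3b (23836), Pou5f1 (11893) and Dppa5a (10480), so the sums say little about the other markers. Of these markers 2 fell in null samples at day 3 and 8 at day 5, none rose, and their part in the results below was not tested. Of all genes tested, 6.12% changed in either direction at day 3 and 26.5% at day 5. In bulk RNA, fewer cells of a type and less RNA per cell cannot be told apart.

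At day 3, 1 of the 7 Irf genes, Irf1, was higher in null than in floxed embryoid bodies, and none was lower. At day 5, Irf1, Irf5 and Irf7 were higher and none was lower. Between day 3 and day 5, Irf2 and Irf7 rose in both lines, Irf5 fell in both, and Irf1 fell in the floxed line. Irf3, Irf8 and Irf9 passed the test in no comparison.

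Calls came from limma on log2(normalised reads + 1), with Benjamini-Hochberg adjustment over all 17000 genes and a limit of 0.05. At day 3, 6.12% of all genes were called and 4.09% were called higher. With the replicate number as a block, these shares were 11% and 6.45%, and Irf1 was again the 1 member called. With the genes of chromosome 11 centred in each library to the other autosomes, 2.82% of genes and 0 members were called. At day 5, 26.5% of all genes were called and 13% were called higher, against 3 of the 7 Irf genes. Of these, Irf7 entered the test only through its null day 5 mean. The fitted change was above 0 for 6 of 7 members at day 3 and for 7 of 7 at day 5, with member medians of 0.58 and 0.48 on the log2 scale. Medians over all genes tested were -0.00358 and -0.0197.

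**Figure D1:**
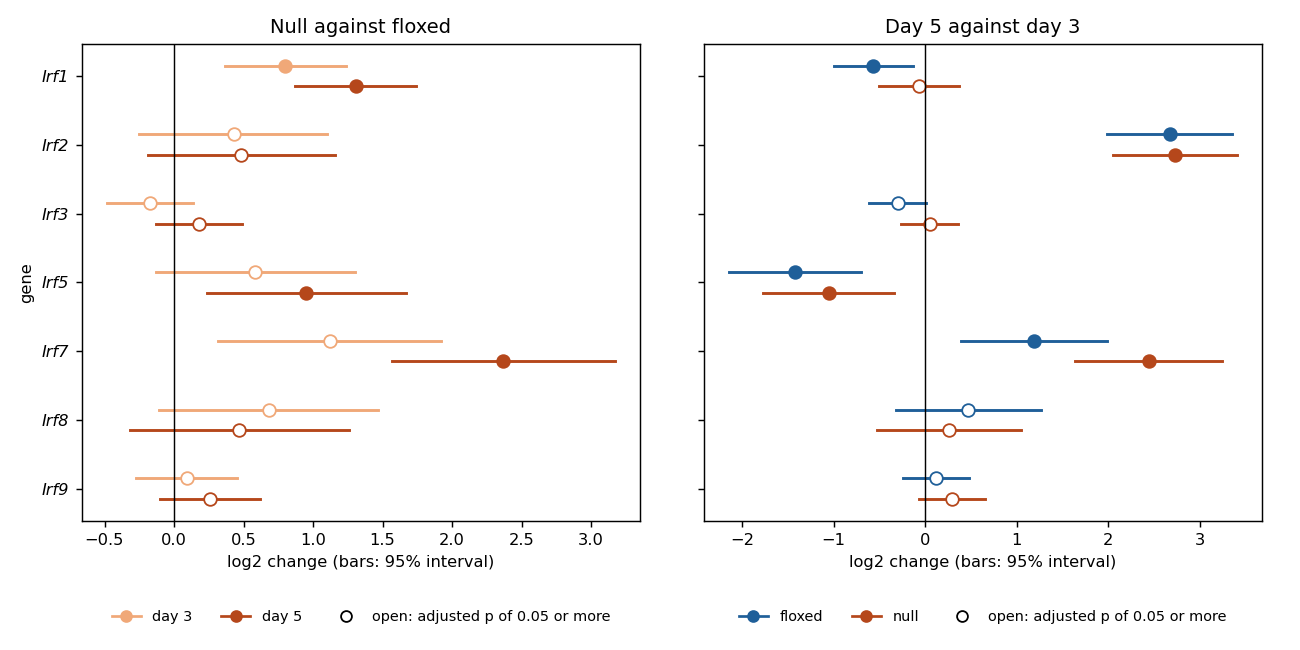
Log2 change ± 95% interval (horizontal axis) of each Irf gene (vertical axis), null against floxed at each day on the left and day 5 against day 3 in each line on the right, with filled points for an adjusted p under 0.05. On the left, Irf7 at day 5 lies farthest from 0 (2.37), and on the right Irf2 does in both lines (2.67 and 2.73).

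Levels of different genes were compared as normalised reads per kb of exon. Irf1 stood highest, with group means of 344 and 234 per kb in floxed samples at day 3 and day 5, and 609 and 577 in null samples. Irf3 had 213 and 175 per kb in floxed and 190.2 and 197 in null samples, and Irf9 had 35.9 and 38.9, and 38.6 and 46.9. The other members had group means between 0.346 per kb (Irf7, floxed day 3) and 17.9 per kb (Irf5, null day 3). Irf1 alone made up 51.9% to 60.3% of the summed level of the 7 genes per kb in floxed samples at day 3 and 47.3% to 51.2% at day 5. In null samples it made up 66.8% to 72.4% and 65.7% to 69.3%, so the ranges of the lines did not overlap at either day.

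**Figure D2:**
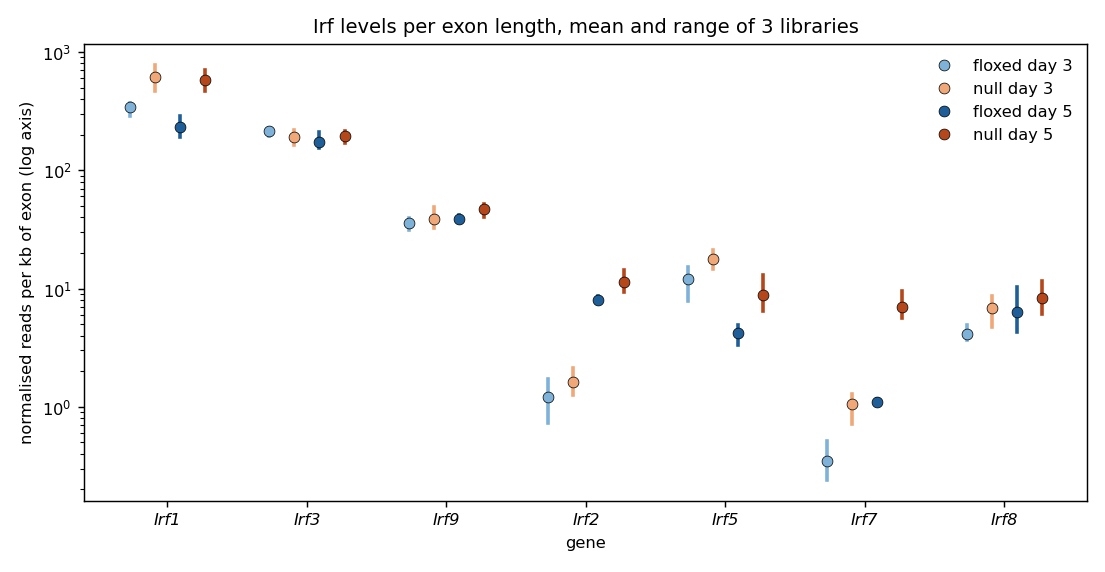
Normalised reads per kb of exon (vertical, log axis) for each Irf gene in the 4 groups, where points are means and lines span the lowest to the highest of 3 libraries. Irf1, Irf3 and Irf9 lie above 30 per kb in every group mean, while Irf2, Irf5, Irf7 and Irf8 lie below 18.

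The promoters of Irf1 and Irf7, which differed most between the lines at day 5, and of Irf2, which changed most between the days, are shown from RefSeq on GRCm38.p6, 250 bases before the start to 50 after it, 5′ to 3′ on the gene's strand. Capitals mark GAS letters (TTCNNNGAA, both strands), ISRE core letters (GAAA, any 2 bases, then GAAA, both strands) and TATA letters (TATAAA, sense strand). These letters stand in 8.3%, 3.44% and 8.32% of 32851 promoters of the same length, and a match is a description, not a site. RefSeq held 10 promoters for the 7 members.
Irf1, chr11:53769764-53770063, plus strand: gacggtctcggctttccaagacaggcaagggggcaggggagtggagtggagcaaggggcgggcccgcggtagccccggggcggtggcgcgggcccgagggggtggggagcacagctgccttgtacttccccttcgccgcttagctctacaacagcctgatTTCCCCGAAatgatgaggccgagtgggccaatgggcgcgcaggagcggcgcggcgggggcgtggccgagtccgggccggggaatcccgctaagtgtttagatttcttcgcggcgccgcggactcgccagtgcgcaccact
Irf2, chr8:46739495-46739794, plus strand: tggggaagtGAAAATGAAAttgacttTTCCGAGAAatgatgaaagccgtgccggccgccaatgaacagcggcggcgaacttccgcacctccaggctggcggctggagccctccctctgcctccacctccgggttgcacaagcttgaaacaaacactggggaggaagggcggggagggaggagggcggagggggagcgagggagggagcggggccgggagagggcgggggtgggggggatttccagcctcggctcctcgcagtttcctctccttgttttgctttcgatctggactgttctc
Irf7, chr7:141266375-141266674, minus strand: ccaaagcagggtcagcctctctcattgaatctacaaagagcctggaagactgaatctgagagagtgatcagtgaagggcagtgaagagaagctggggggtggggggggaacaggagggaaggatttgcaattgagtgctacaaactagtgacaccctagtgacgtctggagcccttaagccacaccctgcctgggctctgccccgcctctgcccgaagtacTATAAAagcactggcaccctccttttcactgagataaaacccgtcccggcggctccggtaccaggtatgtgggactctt
In the Irf1 promoter the GAS letters begin 90 bases before the start. The Irf2 promoter has ISRE core letters from base -241 and GAS letters from base -224, which do not overlap. The Irf7 promoter has TATA letters from base -29. Of the promoters not shown, 1 of the 2 of Irf8 has GAS letters in 2 places and TATA letters, and those of Irf3, Irf5 and Irf9 and the other promoters of Irf1 and Irf8 have none of the 3 motifs.

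Irf1 (ENSMUSG00000018899.16, chromosome 11, 53770014 to 53778374 on the mm10 build, plus strand) was the most abundant member per kb in every group mean. It had 1153, 1461 and 1485 normalised reads in floxed samples 1 to 3 at day 3, against 1844, 2323 and 3103 in null samples. The day 5 values were 887, 753 and 1147 in floxed and 1866, 2214 and 2807 in null samples. Each null sample was above each floxed sample, at both days, and sample 3 was the highest of its group in all 4 groups. The log2 change was 0.80 ± 0.20 (SE) at day 3 (1.74-fold, 95% interval 0.37 to 1.24, adjusted p = 0.0333) and 1.31 ± 0.20 at day 5 (2.47-fold, 0.87 to 1.74, adjusted p = 0.000804). The day 5 call held in all 12 fits that left out 1 library. The day 3 call did not hold when floxed replicate 1 (0.69, adjusted p = 0.132), 2 (0.0634) or 3 (0.0513) or null replicate 2 (0.0714) or 3 (0.61, adjusted p = 0.130) was left out. With the replicate block the day 3 adjusted p was 0.00133, and in a fit of the day 3 samples alone it was 0.0532.

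Irf1 shares chromosome 11 with Kat2a. That chromosome's 1332 tested genes had a median log2 change of 0.36 at day 3 and 0.33 at day 5, and 30.3% and 41.3% of them were called higher. Irf1 exceeded this median by 0.44 and 0.98, and 12.1% and 5.71% of chromosome 11 genes had a larger change. With the genes of chromosome 11 centred in each library to the median change of the other autosomes, its change was 0.42 at day 3 (adjusted p = 0.217) and 0.94 at day 5 (adjusted p = 0.00305). Rad50, a DNA repair gene and the nearest tested gene on 1 side (62695 bases away), rose by 0.64 ± 0.08 and 0.57 ± 0.08. Gm12216, an unnamed gene model 5044 bases away on the other side, rose by 1.76 ± 0.46 at day 5 (adjusted p = 0.0137) and differed by 1.26 ± 0.46 at day 3 (adjusted p = 0.122), with no overlap of the lines at either day. Its day 5 call was lost without null day 5 replicate 2 or 3, and held with chromosome 11 centred (1.40, adjusted p = 0.0356). The part of the chromosome in the Irf1 difference was not tested further.

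From day 3 to day 5 Irf1 fell in the floxed line (-0.57 ± 0.20, adjusted p = 0.0369), where 3 of 3 day 5 samples lay below the day 3 samples. Leaving out floxed day 3 replicate 2 or 3, or floxed day 5 replicate 1 or 2, ended this call (adjusted p = 0.106, 0.0969, 0.0861 and 0.145). In the null line the days overlapped (-0.07 ± 0.20, adjusted p = 0.817). The genotype difference at day 5 minus that at day 3 was 0.50 ± 0.28 (95% interval -0.11 to 1.12, adjusted p = 0.456), so a change of the difference with time did not pass the test.

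Irf2 (ENSMUSG00000031627.7, chromosome 8, 46739732 to 46847458, plus strand), which binds the elements that Irf1 binds, followed the day rather than the genotype. It had 8.71, 5.36 and 12.7 normalised reads in floxed samples at day 3 and 15.9, 9.37 and 10.7 in null samples, from 5 to 14 reads per library. At day 5 it had 56.5, 63.7 and 57.6 in floxed and 105, 68.7 and 79.3 in null samples. Each day 5 sample was several times above each day 3 sample of its line. The rise was 2.67 ± 0.31 in the floxed line (6.36-fold, adjusted p = 3.21e-05) and 2.73 ± 0.31 in the null line (6.61-fold, adjusted p = 2.95e-05), and the rises differed by 0.06 ± 0.44 (95% interval -0.90 to 1.01). Between days, 41.7% of all genes were called in the floxed line (22.5% higher, 19.2% lower) and 44.5% in the null line (22.6% higher, 21.9% lower). Among the Irf genes, 2 rose and 2 fell in the floxed line, and 2 rose and 1 fell in the null line.

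Null samples had more Irf2 than floxed samples at day 5 without overlap, but the change of 0.48 ± 0.31 did not pass the test (95% interval -0.19 to 1.16, adjusted p = 0.282). At day 3 the lines overlapped (0.43 ± 0.31, adjusted p = 0.456). Per kb of exon, the ratio of Irf1 to Irf2 had a median of 246 (218 to 507) in floxed and 461 (216 to 538) in null samples at day 3. At day 5 it was 29.2 (22 to 37) and 59.9 (33 to 65.8). The ratio fell between the days in both lines without overlap, and at each day the ranges of the lines overlapped; at day 3 it rests on few Irf2 reads. Gm16675, an unnamed gene model 217 bases from Irf2, had 0 reads in the null libraries at day 3 and 10.2 to 14.0 normalised reads at day 5, against 0.907 to 3.87 and 2.51 to 6.98 in floxed libraries.

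**Figure D3:**
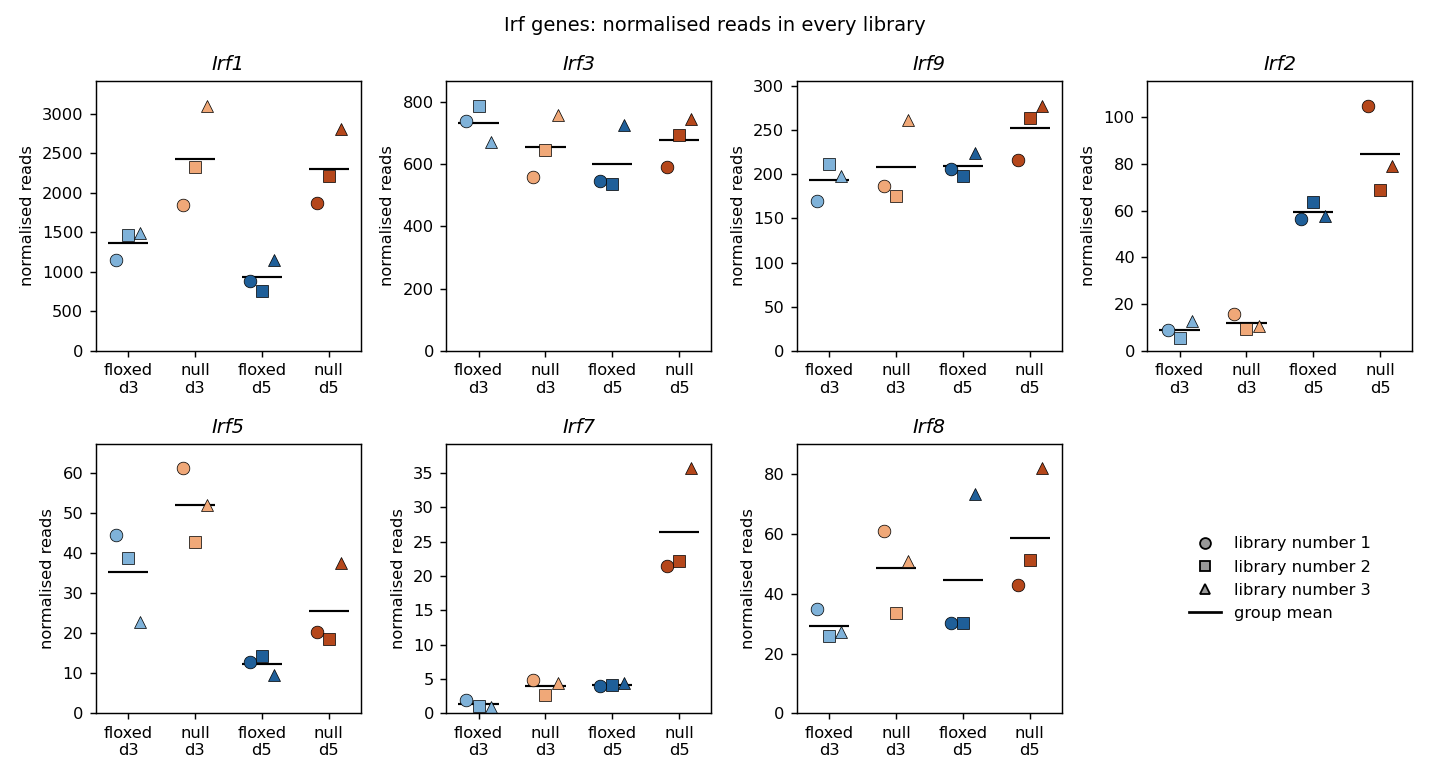
Normalised reads (vertical axis, from 0) of each Irf gene in all 12 libraries by line and day (horizontal axis), with the library number as the marker shape and the group mean as a line. Irf1 separates the lines at both days, Irf2 the days in both lines, and Irf7 stands out in the 3 null day 5 libraries at 21.5 to 35.7.

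Irf3 (ENSMUSG00000003184.14, chromosome 7, 44997648 to 45002848, plus strand) is held latent in resting cells and enters the nucleus when Tbk1 phosphorylates it. It had 741, 789 and 673 normalised reads in floxed and 558, 645 and 760 in null samples at day 3, and 545, 535 and 726 in floxed and 590, 696 and 745 in null samples at day 5. All 4 groups overlapped. The change between lines was -0.17 ± 0.14 at day 3 (95% interval -0.48 to 0.14, adjusted p = 0.514) and 0.18 ± 0.14 at day 5 (-0.13 to 0.49, adjusted p = 0.398). Day 5 differed from day 3 by -0.30 ± 0.14 in the floxed line (adjusted p = 0.115) and 0.05 ± 0.14 in the null line. Without floxed day 5 replicate 3 the floxed difference was -0.44 and passed (adjusted p = 0.0249). Irf3 overlaps Bcl2l12 on the opposite strand in 88 bases of exon, and Bcl2l12 differed between the lines by -0.15 ± 0.14 and 0.09 ± 0.14.

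Irf7 (ENSMUSG00000025498.14, chromosome 7, 141262706 to 141266481, minus strand) is itself induced by interferon and amplifies interferon alpha production. It had 2, 1 and 1 reads in floxed and 4, 2 and 5 in null libraries at day 3, and 5, 5 and 5 in floxed and 19, 19 and 40 in null libraries at day 5. The null day 5 libraries held most of its reads. As normalised reads these were 1.94, 1.07 and 0.907, then 4.89, 2.68 and 4.47, then 3.98, 4.19 and 4.36, then 21.5, 22.1 and 35.7. Irf7 was thus low in every group but null day 5, where each library was above the other 9. At day 5 the change was 2.37 ± 0.37 (95% interval 1.57 to 3.17, adjusted p = 0.000886), a call that held in all 12 fits that left out 1 library. Only the null day 5 mean brought Irf7 past the filter, so its calls in that group are a description. The pooled 78 null and 15 floxed reads gave a ratio of 6.53 (95% counting interval 3.72 to 12.2).

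At day 3 each null library also had more Irf7 than each floxed library, but the change of 1.12 ± 0.37 did not pass (adjusted p = 0.0951), with 11 against 4 reads (ratio 3.14, counting interval 0.932 to 13.5). Irf7 rose with time in the null line (2.44 ± 0.37, adjusted p = 0.000209, 78 against 11 reads, ratio 6.64, 3.52 to 13.9). In the floxed line the rise was 1.19 ± 0.37 (adjusted p = 0.0202, 15 against 4 reads, ratio 3.20, 1.02 to 13.2). Leaving out floxed day 3 replicate 2 or 3 or floxed day 5 replicate 3 ended the floxed call (adjusted p = 0.0584, 0.0621 and 0.0511), as did edgeR (0.0547) and DESeq2 (0.144). With a pseudocount of 5 the floxed rise was 0.54 (adjusted p = 0.0775). The genotype difference at day 5 exceeded that at day 3 by 1.25 ± 0.52, which did not pass (limma, adjusted p = 0.304). Irf7 overlaps Phrf1 on the opposite strand by 45 bases, and Phrf1 differed between the lines by 0.07 ± 0.07 and 0.05 ± 0.07.

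Irf9 (ENSMUSG00000002325.14, chromosome 14, 55603571 to 55610030, plus strand), the DNA-binding subunit of the complex with Stat2, had 169, 212 and 198 normalised reads in floxed and 187, 175 and 262 in null samples at day 3. The day 5 values were 206, 199 and 224 in floxed and 216, 264 and 278 in null samples. Null sample 1 kept the day 5 ranges overlapping. The changes were 0.09 ± 0.17 (95% interval -0.27 to 0.45, adjusted p = 0.803) and 0.26 ± 0.17 (-0.10 to 0.62, adjusted p = 0.270). With time Irf9 differed by 0.12 ± 0.17 in the floxed line and 0.29 ± 0.17 in the null line, which passed (0.47, adjusted p = 0.0295) without null day 3 replicate 3. Stat2, looked up after values were seen, rose in null samples at day 5 (0.82 ± 0.17, adjusted p = 0.0042).

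The neighbours of Irf9 differed between the lines at day 5. Rnf31, a ubiquitin ligase gene that overlaps Irf9 on the same strand by 123 bases, rose by 0.31 ± 0.08 (adjusted p = 0.0103). Psme2, a subunit of the proteasome activator that interferon gamma induces, rose by 0.88 ± 0.17 (adjusted p = 0.00263), and Rec8, a meiotic cohesin gene, by 1.40 ± 0.21 (adjusted p = 0.000666). At day 3 these 3 genes differed by 0.17 ± 0.08, 0.57 ± 0.17 and 0.57 ± 0.21 and did not pass.

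Irf5 (ENSMUSG00000029771.12, chromosome 6, 29526625 to 29541871, plus strand), which acts below Toll-like receptors, fell with time in both lines. It had 44.5, 38.6 and 22.7 normalised reads in floxed and 61.1, 42.8 and 51.9 in null samples at day 3, and 12.7, 14.2 and 9.60 in floxed and 20.3, 18.6 and 37.4 in null samples at day 5. Each day 5 sample lay below each day 3 sample of its line. The fall was -1.42 ± 0.33 in the floxed line (adjusted p = 0.00406) and -1.05 ± 0.33 in the null line (adjusted p = 0.0205). Leaving out null day 3 replicate 1, or null day 5 replicate 1 or 2, ended the null call (adjusted p = 0.0738, 0.0658 and 0.0817).

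At day 5 each null sample had more Irf5 than each floxed sample (0.95 ± 0.33, 95% interval 0.24 to 1.67, adjusted p = 0.0497). This call lies at the threshold. It was lost in 10 of 12 fits that left out 1 library, all but floxed day 3 replicate 3 and null day 5 replicate 2, with the highest adjusted p without null day 5 replicate 3 (0.65, adjusted p = 0.192) and floxed day 5 replicate 3 (0.80, adjusted p = 0.146). It was also lost with a pseudocount of 5 (0.0566), no filter (0.0528), a filter at 50 (0.0532), chromosome 11 centred (0.052) and the day 5 samples alone (0.0932). At day 3 the lines overlapped (0.58 ± 0.33, adjusted p = 0.324). Irf5 overlaps the transportin gene Tnpo3 on the opposite strand in 411 bases of exon, and Tnpo3 differed between the lines by -0.05 ± 0.07 and, at day 5, by -0.24 ± 0.07 (adjusted p = 0.0262).

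Irf8 (ENSMUSG00000041515.9, chromosome 8, 120736358 to 120756694, plus strand), a factor of the myeloid lineage, had 34.9, 25.7 and 27.2 normalised reads in floxed and 61.1, 33.5 and 51.0 in null samples at day 3. The day 5 values were 30.2, 30.2 and 73.3 in floxed and 43.0, 51.3 and 82.0 in null samples. The groups overlapped in every comparison, and at day 5 sample 3 was well above samples 1 and 2 in both lines. The changes between lines were 0.68 ± 0.37 (95% interval -0.11 to 1.47, adjusted p = 0.296) and 0.47 ± 0.37 (-0.32 to 1.26, adjusted p = 0.379). Across the days it differed by 0.47 ± 0.37 in the floxed and 0.26 ± 0.37 in the null line.

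Since Irf5 and Irf8 are immune cell genes, 14 macrophage and blood cell markers were examined, of which 5 were in the table. Their summed level was 383 to 552 in floxed and 516 to 596 in null samples at day 3, and 252 to 313 and 399 to 435 at day 5. None of the 5 was at 0 throughout a group, and Csf1r, the receptor for macrophage colony-stimulating factor, had at most 1.07 normalised reads at day 3 and 5.83 to 19.6 at day 5. Of the 4 tested, 0 were called at day 3 (0 at an unadjusted p under 0.05 and 0 by edgeR or DESeq2) and 1, Cd68 on chromosome 11, was higher in null samples at day 5. Cd68 had day 5 means of 95.1 in floxed and 254 in null samples. Coro1a (125 and 93.6) and Laptm5 (58.1 and 52.0) had lower means in null samples. At day 5, 1 of the 4 changes was above 0. The part of these markers in the Irf5 and Irf8 values was not tested. Endothelial and blood progenitor markers (12 tested of 15) had 0 calls between the lines at either day by limma, edgeR or DESeq2, with 1 and 2 at an unadjusted p under 0.05. Their summed level was 510 to 692 in floxed and 776 to 946 in null samples at day 3, and 585 to 1069 and 613 to 981 at day 5. Hbb-bh1, an embryonic globin, was at 0 in all null day 3 libraries. Feeder fibroblast markers (11 of 14) summed to 2665 to 3187 and 2514 to 3029 at day 3, and 6957 to 13373 and 6697 to 8003 at day 5. Of these markers, 2 were called higher in null samples at day 3 and 1 at day 5, against 4.09% and 13% of all genes. The median changes were -0.26 and -0.27, and 3 of the 11 were above 0 at each day. With chromosome 11 centred, 0 and 1 were called higher.

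Groups that did not overlap, with null higher, were found for 2 of 7 Irf genes at day 3 (Irf1 and Irf7), against 14.8% of all genes, and for 4 of 7 at day 5 (Irf1, Irf2, Irf5 and Irf7), against 19.8%. Irf7 was tested only because of its null day 5 mean, so its place in the day 5 count is a description. In the order of group means, null day 3 and null day 5 overlapped for Irf1 and both lay above floxed day 3, with floxed day 5 lowest. For Irf7, floxed day 5 and null day 3 overlapped between null day 5 above and floxed day 3 below. For Irf3, Irf8 and Irf9 all neighbours in the order overlapped. In the test of whether the genotype difference changed between days, 0 of 7 members passed with limma, edgeR or DESeq2, and 1, Irf7, had an unadjusted p under 0.05. In that test 0.476% of all genes were called, or 2.61% with the replicate block.

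A further family member outside the 7, Irf4, was looked up after values were seen. Irf4, a lymphocyte factor, had 0 reads in all null libraries at day 3, 0, 2 and 1 in floxed ones, and 1, 6 and 7 in floxed and 10, 12 and 18 in null libraries at day 5. It passed the filter only through its null day 5 mean (13.8 normalised reads). Its day 5 change was 1.78 ± 0.57 (adjusted p = 0.0362), a call that ended without floxed day 5 replicate 1 (1.16, adjusted p = 0.149) and when any 1 of the 3 null day 5 libraries was left out (adjusted p = 0.062 to 0.1). It was also lost with DESeq2 (0.146), a pseudocount of 0.5 (0.0644) and the day 5 samples alone (0.052).

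The Irf genes did not vary as a block. Over the 12 samples, which share groups and replicate numbers, Pearson's r of log2 values for the 21 pairs of members ran from -0.676 (Irf2 and Irf5) to 0.776 (Irf2 and Irf7). Of all genes tested, the profile most like that of Irf1 was that of Usp26 (r = 0.958), followed by Psmb9 (0.952), an immunoproteasome subunit, and Fmr1nb (0.949). Irf5 was most like Oas3 (0.976), an antiviral oligoadenylate synthetase, Gch1 (0.965) and Apobec1 (0.963). Irf2 was most like Rhobtb1 (0.984), Lifr (0.982) and Ano10 (0.980), and Irf7 most like Clec1a (0.970), Crim1 (0.968) and Tmem70 (0.965). For Irf9 these genes were Hint2 (0.917), Mlycd and Gpr108, for Irf8 Cep55 (0.903) and Ggt7, and for Irf3 Cenpt (0.852), Mus81 and Trmt2a.

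The genes around the Irf family were then counted along the pathway. Between the lines, 6.12% of all genes were called at day 3 and 26.5% at day 5. The shares called higher in null samples were 4.09% and 13%. None of the 10 interferon genes listed was in the table, so they could not be tested. Of 6 interferon receptor genes, 0 changed between the lines at either day with limma, edgeR or DESeq2 (0 and 1 at an unadjusted p under 0.05), with medians of -0.13 and 0.11. Ifngr2, a chain of the interferon gamma receptor, differed by -0.25 ± 0.13 and 0.30 ± 0.13. With time 2 of the 6 rose in the floxed line and 4 in the null line, against 22.5% and 22.6% of all genes. Ifnar1 rose by 0.37 ± 0.08 and 0.38 ± 0.08. The floxed count was 1 without floxed day 3 replicate 2 or 3 or floxed day 5 replicate 1 or 2.

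Of 9 genes for Jak kinases and Stat factors, which carry the signal from the receptors to Irf9, 2 rose in null samples at day 3 and 5 at day 5, and none fell (medians 0.23 and 0.59). The shares of all genes called higher were 4.09% and 13%. Stat3 rose by 0.83 ± 0.13 and 1.35 ± 0.13, and Tyk2, a kinase of the type I receptor, by 0.59 ± 0.11 at day 5, where its day 3 difference was 0.23 ± 0.11. Both genes called at day 3 lie on chromosome 11, and with that chromosome centred 0 were called at day 3 and 4 at day 5. The day 3 count was 1 without floxed day 3 replicate 1 or 2 or null day 3 replicate 3.

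Of 15 tested sensors and adaptors that feed Irf3 and Irf7, 4 rose and 1 fell at day 3 and 5 rose at day 5 (medians 0.31 and 0.57). For these and the kinases below, the shares of all genes called were 6.12% and 26.5%. Trim25, a ubiquitin ligase of the RIG-I pathway on chromosome 11, rose by 0.93 ± 0.14 and 0.90 ± 0.14, and at day 5 Ifih1, a sensor of double-stranded RNA, rose by 1.76 ± 0.36 and Zbp1, a nucleic acid sensor, by 2.23 ± 0.44. The day 3 rises numbered 1 without floxed day 3 replicate 1 or null day 3 replicate 2 or 3, and 2 in the fit of day 3 samples alone. The fall at day 3 was that of Irak1 (-0.32 ± 0.08), a call lost without any 1 of the 6 day 3 libraries (adjusted p = 0.0553 to 0.106). Of 8 genes for the kinases of Irf3 and Irf7 and their adaptors, 1 rose at day 3, Tbkbp1 on chromosome 11 (0.50 ± 0.10), and 2 at day 5, Tbkbp1 (0.30 ± 0.10) and Ikbkg (0.22 ± 0.07). Tbk1 itself differed by -0.11 ± 0.07 and 0.15 ± 0.07. Leaving out null day 3 replicate 3 (adjusted p = 0.0585) or centring chromosome 11 ended the Tbkbp1 call at day 3. At day 5, with that chromosome centred, the Tbkbp1 change turned to -0.06 (adjusted p = 0.701), and its call was also lost in the fit of day 5 samples alone. Of the 2 day 5 calls, that of Tbkbp1 was lost in 10 and that of Ikbkg in 6 of 12 fits that left out 1 library.

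Of 12 inhibitors of interferon signalling, 1 rose and 1 fell at day 3 and 4 rose and 2 fell at day 5 (medians 0.08 and 0.05). In either direction, 6.12% and 26.5% of all genes were called. Socs1, which blocks Jak kinases and is also counted among the interferon gamma targets, rose by 1.27 ± 0.19 at day 5 (adjusted p = 0.000666). Its day 3 rise of 0.71 ± 0.19 (adjusted p = 0.0448) was lost in 10 of 12 fits that left out 1 library. Socs2 fell at day 3 (-0.73 ± 0.18), a call that ended when any 1 of the 3 floxed day 3 libraries, or null day 3 replicate 2 or 3, was left out (adjusted p = 0.0537 to 0.115). The rises at day 5 numbered 2 without floxed day 5 replicate 1, and the 2 falls at day 5 were fewer in 10 of the 12 fits. Among 11 tested Irf cofactors and turnover factors, 0 were called at day 3 by limma and by edgeR, 1 by DESeq2 and 4 at an unadjusted p under 0.05. At day 5, 2 rose and 1 fell, where 26.5% of all genes were called. Kat2b, the acetyltransferase closest to Gcn5, rose at day 5 (1.06 ± 0.14, adjusted p = 0.000276). Of 9 NF-kB factors, which act beside Irf3 on the interferon beta gene, 1 fell at day 3, Nfkb1 (-0.29 ± 0.07), and 0 changed at day 5 by limma, edgeR or DESeq2 (2 at an unadjusted p under 0.05). Leaving out floxed day 3 replicate 2 or 3, or any of the 3 null day 3 libraries, ended the Nfkb1 call (adjusted p = 0.0585 to 0.107).

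The last lists hold genes that the Irf factors are known to drive. Of 41 tested type I interferon-stimulated genes, 10 rose at day 3 and none fell, and 28 rose and 2 fell at day 5, with medians of 0.59 and 1.03. Among all genes tested, 4.09% were called higher at day 3 and 13% at day 5. Parp14, an antiviral ADP-ribosyltransferase, rose by 1.61 ± 0.22 and 2.11 ± 0.22, Oasl2 by 1.41 ± 0.22 and 2.05 ± 0.22, and the helicase gene Ddx60 by 2.06 ± 0.35 and 2.90 ± 0.35. Only 3 of the 41 lie on chromosome 11, and 9 and 25 of the genes that rose lie elsewhere. The day 3 count was 6 without floxed day 3 replicate 1 or null day 3 replicate 2, 5 without null day 3 replicate 3, and 6 in the fit of day 3 samples alone. The 2 falls at day 5 were lost, 1 or both, without any 1 of the 6 day 5 libraries. Leaving out single libraries gave 22 to 28 rises at day 5.

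Of 29 tested targets of Irf1 and interferon gamma, 15 rose at day 3 and 25 at day 5, and none fell, with medians of 0.83 and 1.51. Again, 4.09% and 13% of all genes were called higher. H2-K1, a class I antigen-presenting molecule, rose by 0.76 ± 0.11 and 1.51 ± 0.11, Gbp7, a guanylate-binding protein gene, by 1.73 ± 0.28 and 2.48 ± 0.28, and Igtp, an immunity-related GTPase on chromosome 11, by 2.41 ± 0.28 at day 5. Of these 29, 5 lie on chromosome 11, and with that chromosome centred 10 and 23 genes rose. The day 3 count was 4 without floxed day 3 replicate 1 or null day 3 replicate 3, 7 without null day 3 replicate 2, 8 without floxed day 3 replicate 3 and 3 in the fit of day 3 samples alone. At day 5 it was 23 to 25. In the test of a change of the genotype difference with time, limma and edgeR called 0 genes of both lists. DESeq2 called 2 of the 41 and 3 of the 29, and 9 and 8 had an unadjusted p under 0.05 in limma.

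**Figure D4:**
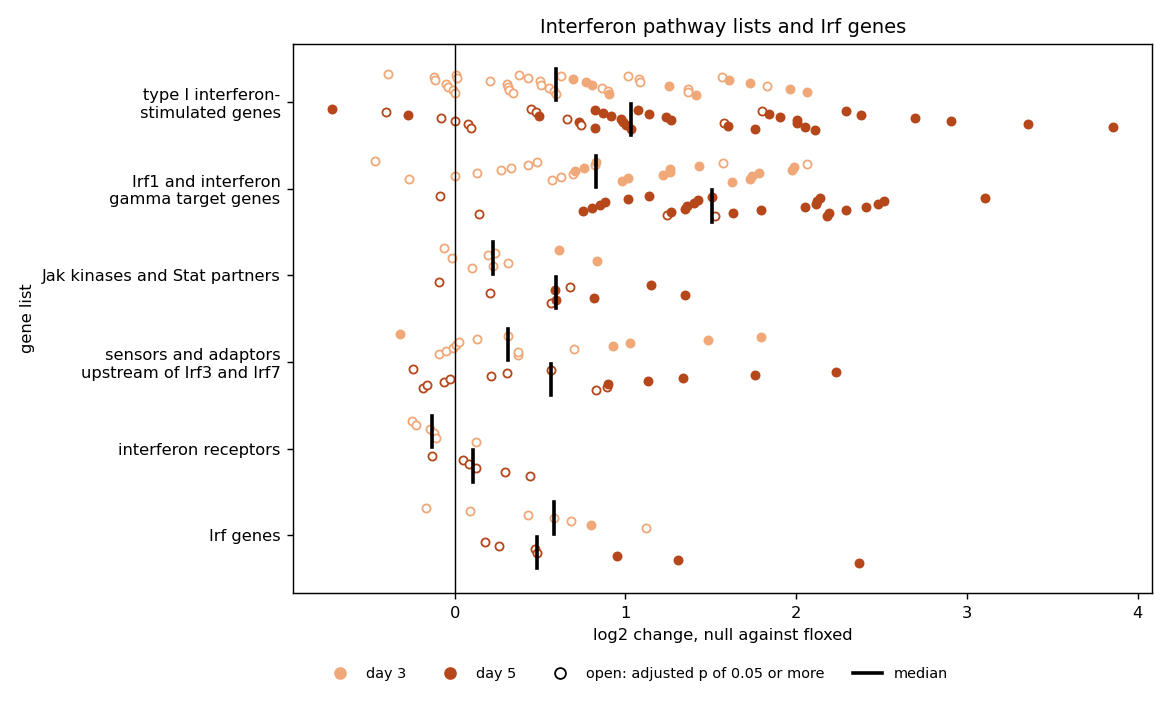
Log2 change of null against floxed (horizontal axis) for each tested gene of 5 pathway lists and the 7 Irf genes (vertical axis) at day 3 and day 5, with filled points for an adjusted p under 0.05 and black bars for medians. The medians of the 2 lists of target genes stand at 1.03 and 1.51 at day 5, against 0.48 for the Irf genes and 0.11 for the receptors.

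The target genes were also counted between the days, where 22.5% of all genes were called higher and 19.2% lower in the floxed line, and 22.6% and 21.9% in the null line. From day 3 to day 5, 17 of the 41 type I genes rose and 6 fell in the floxed line, and 23 rose and 3 fell in the null line. Ifitm1, a membrane protein that restricts viral entry, rose by 3.02 ± 0.23 and 2.41 ± 0.23, while Bst2, a tether of budding virus, fell by 1.26 ± 0.16 in the floxed line. Of the 29 targets of Irf1 and interferon gamma, 13 rose and 3 fell in the floxed line and 20 rose and 1 fell in the null line. Without floxed day 3 replicate 1 the floxed rises numbered 10 and 5, and the second was 8 without floxed day 3 replicate 3 and 7 without floxed day 5 replicate 1.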

How the data were processed

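Libraries were stranded total RNA libraries, per the labels' protocols. The deposited signal values are read counts that the authors divided by 1 size factor per sample, as their steps show: 100% of values were whole multiples of the smallest value of their column (tolerance 0.01). The submitters' processing notes list the tools DESeq 1.16.0, HTSeq 0.6.0, TopHat2 2.0.10 and CASAVA 1.8.2, and as genome build mm10. Whether counting used the strand is not given in the sources used here, so reads of a gene and its antisense partner may be mixed. Symbols and positions came from GENCODE M21 by gene ID without version (18199 of 18269 matched, 12740 in the same version).

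The test was limma 3.58.1 (R 4.3.3, trend) on log2(value + 1), with 4 group means over 12 samples, 8 residual and 5 prior degrees of freedom, and 5 contrasts, two-sided; 1269 genes fell below the filter. A fold is on this scale and understates changes of low genes. edgeR 4.0.16, which called 3 Irf genes at day 5, and DESeq2 1.42.0 were run on recovered reads as alternatives. Others were pseudocounts of 0.5 and 5, no filter, a filter at 50, upper-quartile scaling, the replicate block, chromosome 11 centred per library to the other autosomes, and only the groups compared. Each library was also left out in turn, and all samples numbered 3 were left out together. Counting intervals are exact, at 95%, and cover counting error only.

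The members and gene lists were chosen with earlier results of these data known. Named were the members, Kat2a and Kat2b, genes that overlap or flank a member, the list genes of smallest p, and the 3 genes most like each member; not all of these are printed.

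Null and floxed samples of the same number deviated together from their group means (r from 0.270 to 0.372 on day 3 and from 0.247 to 0.424 on day 5, but at most 0.0268 for other pairs), so the replicate numbers pair the samples in genotype comparisons. The main fit and the fits that left out libraries did not use this pairing. With the replicate block, 11 and 28 of the 41 type I genes rose at day 3 and day 5. Of the 29 targets of Irf1 and interferon gamma, 19 and 25 did.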

Additional observations from a re-analysis of the deposited data

Results flagged for a closer look

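Irf2bpl, an Irf2-binding protein gene, differed between the lines in opposite directions at the 2 days. It had 2461, 2446 and 2521 normalised reads in floxed and 2252, 1877 and 2057 in null samples at day 3, where each null sample was lower (-0.27 ± 0.09, adjusted p = 0.110). At day 5 it had 1488, 1214 and 1559 in floxed and 1925, 1824 and 1854 in null samples, where each null sample was higher (0.40 ± 0.09, adjusted p = 0.00788). The genotype difference at day 5 minus that at day 3 was 0.67 ± 0.13 (limma, adjusted p = 0.0457, or 0.0114 with the replicate block). The call was lost in each of the 12 fits that left out 1 library (adjusted p = 0.0503 to 0.115).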

How the results depend on the processing

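For the 7 Irf genes over the 5 comparisons, 326 of 336 values from alternatives with all libraries kept their direction and their side of the threshold, 10 were weaker and none turned. With libraries left out, 409 of 455 did, 28 were weaker, 3 were stronger and 15 turned. The genes changed, null against floxed, day 3, numbered 1041, against 1696 with DESeq2, 1866 with the replicate block, 480 with chromosome 11 centred and 647 with only the groups compared, and the last 2 called 0 Irf genes. With a filter at 50, which leaves Irf7 out, 1 Irf gene was called at day 5. The test of a change of the genotype difference with time called 81 genes, 511 with DESeq2 and 443 with the replicate block. The replicate block changed no call among the 35 results of the Irf genes. With chromosome 11 centred, Tbkbp1 turned to -0.06 at day 5. The causes were not tested.

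Libraries were left out 1 at a time, and all samples numbered 3 were also left out together. These fits gave 382 to 1133 changed genes and 0 to 1 Irf genes at day 3, and 2592 to 4557 and 2 to 3 at day 5. The lows of 382 and 2592 came without the samples numbered 3, and leaving out single libraries gave at least 426 and 3223. Between days the fits gave 5417 to 7159 and 2 to 4 in the floxed line, and 6287 to 7759 and 2 to 4 in the null line. For the change of the difference they gave 3 to 115 and 0. Values that turned had ranges of -0.09 to 0.20 (Irf9) and -0.10 to 0.02 (Tnpo3) at day 3, -0.05 to 0.20 (Bcl2l12) at day 5, -0.25 to 0.13 (Irf1), -0.06 to 0.17 (Irf3) and 0 to 0.45 (Irf8) between days in the null line, and -0.26 to 0.34 (Irf2) and -0.48 to 0.20 (Irf8) for the change of the difference. Fits of only the groups compared were not run for that change. Irf7, with at most 5 reads in 9 libraries, is limited by depth.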
